A study of Mus musculus with 46 samples.

Results

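Cytosolic ribosomal protein genes were examined in cultured mouse thyroid tumour cells. They were the protein-coding genes listed under the names Rpl or Rps followed by a number, Rplp0 to Rplp2, or Rpsa, without the S6 kinases and Rps19bp1. The rule gave 81 of the 14360 genes listed for the lines and 80 of the 14056 genes listed for an experiment that put Max back, where Rpl23a was the 1 member not listed. Of the members, 31 encode proteins of the small (40S) subunit, 43 proteins of the large (60S) subunit and 3 the acidic P stalk, and 4 are paralogs: Rpl22l1, Rps27l, Rpl7l1 and Rpl36al. The gene annotation (GENCODE vM21) holds 91 protein-coding genes that match the rule, and the 10 that neither table lists, among them the tissue-restricted Rpl3l, Rpl10l and Rpl39l, were not analysed here.

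Values of 14 RNA-seq libraries were used, in 4 groups. RPM lines (n = 4) carry mutations of Rb, p53 and Max, and RP lines (n = 4) carry mutations of Rb and p53 alone. Max addback cells (n = 3) are an Rb/p53/Max mutant line transduced with a vector that expresses Max, and empty vector cells (n = 3) are that mutant line transduced with the vector alone. All 14 libraries thus share the loss of Rb and p53, which was induced with tamoxifen through a Cre under Ascl control that acts in neuroendocrine cells. By the library names both transduced groups come from the line of RPM replicate 2, so that experiment describes 1 line, and its p-values measure only the spread between these libraries. The 32 tumour libraries were not analysed here. The question was how transcription changes when MAX, the obligate DNA-binding partner of MYC proteins and of the MXD and MNT repressors, is lost.

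A ribosome is built from a small subunit that reads the mRNA and a large subunit that joins amino acids, and nearly every ribosomal protein is present in a single copy, so cells make these proteins in balanced amounts. Most of the mRNAs begin with a C and a run of pyrimidines, the terminal oligopyrimidine (TOP) tract, through which mTOR and LARP1 control their translation and stability. MYC is known to raise transcription of ribosomal protein genes and of ribosome assembly factors. Short intronless copies of these genes are spread through the mouse genome as processed pseudogenes, so reads from a member can also match its copies.

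The start sites of members that the results turn on are given first, so that the tract can be read beside the change of its gene. Each run covers 40 bases before to 20 bases after a RefSeq start on GRCm38.p6, 5′ to 3′ on the gene's strand. Capitals mark a C followed by at least 6 letters that are C or T, beginning between 20 bases before and 10 bases after the start. The first 5 are of members that fell with Max addback and have the tract, the next 3 of members that fell and have none at this start, and the last 3 of members that rose with addback or were not called.
Rpl13a: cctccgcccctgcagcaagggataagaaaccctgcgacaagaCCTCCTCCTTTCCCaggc
Rpl4: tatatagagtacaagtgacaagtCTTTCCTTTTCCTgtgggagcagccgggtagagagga
Rplp2: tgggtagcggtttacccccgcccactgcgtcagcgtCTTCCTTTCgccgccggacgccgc
Rps6: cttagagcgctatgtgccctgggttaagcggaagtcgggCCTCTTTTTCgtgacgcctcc
Rpl28: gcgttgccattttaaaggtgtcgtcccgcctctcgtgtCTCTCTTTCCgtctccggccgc
Rpl22: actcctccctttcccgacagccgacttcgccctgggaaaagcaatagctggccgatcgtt
Rps2: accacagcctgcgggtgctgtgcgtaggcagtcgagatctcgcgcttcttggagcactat
Rpl19: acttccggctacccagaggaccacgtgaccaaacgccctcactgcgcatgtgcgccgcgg
Rpl15: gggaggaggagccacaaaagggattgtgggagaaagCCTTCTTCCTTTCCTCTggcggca
Rpl22l1: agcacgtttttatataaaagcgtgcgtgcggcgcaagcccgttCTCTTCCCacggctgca
Rps10: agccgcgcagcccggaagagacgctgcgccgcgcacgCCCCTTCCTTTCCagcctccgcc
These runs lie at chr7:45128726-45128785, minus strand (Rpl13a), chr9:64173347-64173406, plus strand (Rpl4), chr7:141447611-141447670, plus strand (Rplp2), chr4:86857348-86857407, minus strand (Rps6), and chr7:4792925-4792984, plus strand (Rpl28). The others lie at chr4:152325686-152325745, plus strand (Rpl22), chr17:24720023-24720082, plus strand (Rps2), chr11:98026670-98026729, plus strand (Rpl19), chr14:18270967-18271026, minus strand (Rpl15), chr3:28805468-28805527, plus strand (Rpl22l1), and chr17:27635225-27635284, minus strand (Rps10).

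RefSeq promoters were found for 61 of the 81 members, with 72 start sites in all. The tract was present at 48.6% of these start sites, against 17.1% of the 32851 start sites of all genes. Among the members that fell with addback it was at 48.9% of 47 start sites, and among the other members at 48.0% of 25. The site CACGTG, which MAX complexes are known to bind and which reads the same on both strands, was found in the 300 bases around 11.1% of member start sites and 7.15% of all start sites. A run of C and T cannot contain it. It was found for 5 genes that fell with addback and for 1 other member, at 12.8% and 8.0% of start sites, and one copy stands in the Rpl19 run above. Start sites of the same gene can count the same copy, as those of Rpl19 do, so these percentages do not count separate copies. These are matches of letters and say nothing of binding.

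Max addback was accompanied by lower levels across most of the ribosomal protein genes. Of 80 members 51 fell and 1 rose by limma (Benjamini-Hochberg adjusted p under 0.05 over all listed genes), and 28 were not called. Over all genes 25.5% were called lower and 27.7% higher. The median log2 change of the members, on a log2(CPM + 1) scale, was -0.55, against -0.002 for all genes, and 92.5% of members lay below 0, against 50.1% of all genes. Addback and empty vector libraries did not overlap, with addback lower, for 53 members, and for 30.2% of all genes. With addback higher this held for 1 member, Rpl15, and for 31.7% of all genes. No member lay apart from the rest by more than 3 scaled median absolute deviations.

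The summed level of the members was 5783, 6223 and 8030 CPM (reads scaled to library size by the authors) in addback libraries, against 9843, 10100 and 10090 CPM in empty vector libraries. Every addback library lay below every empty vector library, and addback replicate 3 lay between the other addback libraries and the controls. That library was the highest of its group for 74 of the 80 members. Without it 64 members fell and the median was -0.67, and leaving out any other library gave 44 to 47. Calls over all 14056 genes, in either direction, moved likewise. They were 9035 without addback replicate 3 and 6166 to 6883 without any other library. The part of the state of addback replicate 3 in the result was not tested.

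**Figure D1:**
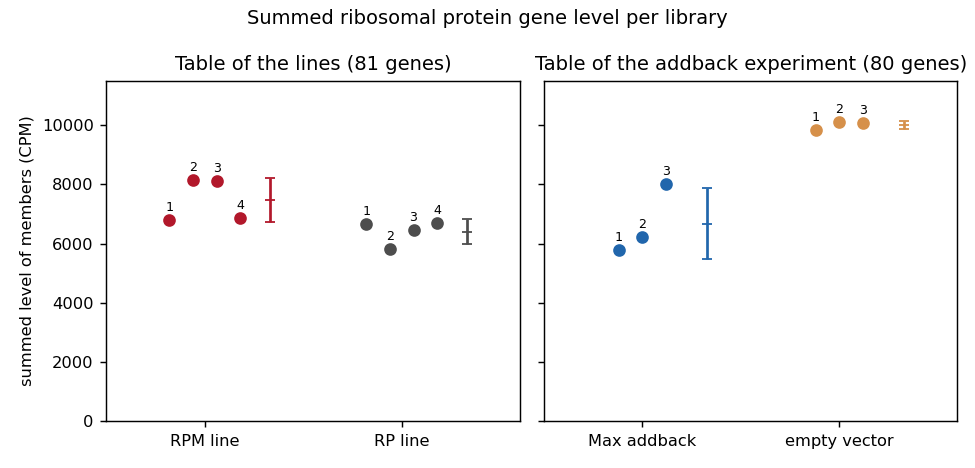
Summed level of the ribosomal protein genes in each library (CPM, linear axis from 0), with the replicate number above each point and the group mean ± SD beside the points. The left panel holds RPM and RP lines and the right panel, from a table normalised separately, addback and empty vector libraries. Addback libraries lie at 5783 to 8030 CPM and empty vector libraries at 9843 to 10100 CPM.

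Other features moved with the same contrast. Max itself was at 251, 250 and 220 CPM in addback libraries, against 86.3, 83.1 and 96 CPM in empty vector libraries. The summed level of 4 Y-linked genes was 0, 0.125 and 0.257 CPM with addback, against 423, 415 and 410 CPM with empty vector, so the addback cells differ from their controls by more than Max, and the parts of the 2 differences in any result cannot be told apart. All 7 C cell markers were listed, and their sum was 5060 to 5790 CPM with addback and 3880 to 4130 CPM with empty vector. The fibroblast markers Col1a1 and Dcn, 2 of 4 looked for, summed to 5.34 to 7.1 CPM with addback and 28.9 to 39.2 CPM with empty vector. Follicular (3 of 5 listed), endothelial (1 of 3) and leukocyte (1 of 3) markers stayed at or below 3.73 CPM in each of the 6 libraries. The part of these other features in the ribosomal protein results was not tested. In bulk RNA, fewer cells with a transcript and less of it per cell cannot be told apart.

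Of 31 small subunit genes 23 fell and none rose, with a median of -0.67, where 25.5% of all genes were called lower. Rps19, required for 40S maturation and mutated in human Diamond-Blackfan anaemia (chromosome 7, 24884371 to 24889806), was at 50.5, 50.2 and 64 CPM with addback and at 114, 113 and 113 CPM with empty vector. Addback replicates 1 and 2 were nearly equal, and the log2 change was -1.05 with an SE of 0.1 (limma adjusted p = 1.57e-05). Rps20, in the head of the 40S subunit, had 67.5, 67.8 and 95.7 CPM with addback and 148, 155 and 161 CPM with empty vector (log2 change -1.01, limma adjusted p = 0.000101).

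Other 40S members with large changes were Rps2 and Rps28. Rps2, near the entry of the mRNA channel, had 44.9, 49.2 and 65.2 CPM with addback, against 103, 105 and 112 CPM with empty vector (log2 change -1.01, limma adjusted p = 9.52e-05). Rps28 had means of 17.1 ± 4.59 CPM with addback and 34.4 ± 5.58 CPM with empty vector (SD, n = 3 each), and its groups did not overlap. Rpsa, which also binds laminin, averaged 16.7 and 29.1 CPM (log2 change -0.79, limma adjusted p = 0.00256), and Rps15, a late-joining 40S protein, 200 and 307 CPM (-0.64, limma adjusted p = 0.00522) in the addback and empty vector groups.

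Rps6, the substrate of the S6 kinases, was listed at 2.42, 0.996 and 2.06 CPM with addback, against 2.57, 4.12 and 3.97 CPM with empty vector (log2 change -0.71, limma adjusted p = 0.0274). It was the 1 called gene among 13 members that averaged under 10 CPM, where 50 of the 67 members above that level fell, and its call was lost without addback replicate 2 (adjusted p = 0.0967), empty vector replicate 2 (0.1) or empty vector replicate 3 (0.0967). The 40S members not called included Rps10, at 1.65, 2.49 and 4.11 CPM with addback and 3.72, 4.12 and 5.34 CPM with empty vector (limma adjusted p = 0.0701). Without addback replicate 3 Rps10 was called lower (log2 change -0.81, limma adjusted p = 0.00193), and the authors' deposited table calls it lower, with a log2 change of -0.67 and an FDR of 0.0318. Rps27 averaged 3.38 ± 0.747 CPM with addback and 3.85 ± 0.381 CPM with empty vector, and Rps3a1 2.24 ± 0.396 and 2.61 ± 0.587 CPM (SD, n = 3 each, limma adjusted p = 0.462 and 0.5). Addback and empty vector libraries overlapped for each of these 3 genes.

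Of 42 large subunit genes 25 fell and 1 rose, with a median of -0.42. Over all genes 25.5% were called lower and 27.7% higher, and whether the subunits differ was not tested. Rpl22, an RNA-binding 60S protein that mice can live without (chromosome 4, 152325742 to 152334071), had 190, 209 and 267 CPM with addback, against 462, 499 and 483 CPM with empty vector. The highest addback library was still well below the lowest control, and the log2 change was -1.13 with an SE of 0.12 (limma adjusted p = 2.76e-05). Rpl19 and Rpl13a, the last in human cells also a subunit of an interferon-induced silencing complex, fell with log2 changes of -0.93 and -0.92 (limma adjusted p = 0.00029 and 0.00118). Rpl19 was at a low level, with 7.75, 8.34 and 9.64 CPM in addback libraries and 19.9, 15.8 and 16.3 CPM in empty vector libraries.

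Rpl4, whose long extension lines the peptide exit tunnel, was the member with most reads, at 557, 591 and 698 CPM with addback and 1016, 996 and 969 CPM with empty vector (log2 change -0.70, limma adjusted p = 0.00027). Rpl7 averaged 144 ± 18.1 CPM with addback and 212 ± 17.8 CPM with empty vector (SD, n = 3 each), a log2 change of -0.56 (limma adjusted p = 0.00131). Rpl5, which with Rpl11 and the 5S rRNA forms the particle that binds MDM2, had 8.26, 12 and 10.8 CPM with addback and 15.3, 13.5 and 13.9 CPM with empty vector, a log2 change of -0.44 (limma adjusted p = 0.0296). That call was lost in 4 of the 6 fits that each leave out 1 library (adjusted p = 0.102, 0.103, 0.0578 and 0.0692 without addback replicate 1 and empty vector replicates 1, 2 and 3). Its partner Rpl11 averaged 10.9 ± 3.73 CPM with addback and 11 ± 1.22 CPM with empty vector (limma adjusted p = 0.854), and addback replicate 3, at 15.2 CPM, exceeded all controls.

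Rpl15 (chromosome 14, 18267823 to 18271391), a core 60S protein, was the 1 member that rose. It had 69.2, 74.7 and 83.8 CPM with addback, against 60, 62.2 and 60.6 CPM with empty vector, so all addback libraries lay above all controls. The log2 change was 0.31 with an SE of 0.09 (limma adjusted p = 0.0141), and the call was lost without empty vector replicate 1 (adjusted p = 0.0577) or 3 (0.0517). Rpl8, at 468, 485 and 652 CPM with addback and 593, 564 and 572 CPM with empty vector, was not called (limma adjusted p = 0.423), and 1 of its addback libraries lay above the controls and the others below. Without addback replicate 3 Rpl8 was called lower, with a log2 change of -0.27, and so was the P stalk gene Rplp1, with -0.41. Rpl31 and Rpl24 averaged 3.89 and 1.06 CPM with addback and 4.21 and 1.19 CPM with empty vector, and no difference was detectable at this depth (limma adjusted p = 0.66 and 0.974).

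The P stalk recruits the elongation factors to the ribosome. Rplp0, its base, was at 105, 117 and 152 CPM with addback, against 202, 206 and 208 CPM with empty vector (log2 change -0.73, limma adjusted p = 0.000623). Rplp2, one of the acidic tips, had 105, 107 and 152 CPM with addback and 179, 178 and 193 CPM with empty vector (log2 change -0.61, limma adjusted p = 0.00299). Its partner Rplp1 had 187, 194 and 270 CPM with addback and 261, 254 and 246 CPM with empty vector and was not called (-0.24, limma adjusted p = 0.137). The 2 tip proteins pair in the ribosome, but whether their changes differ was not tested.

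**Figure D2:**
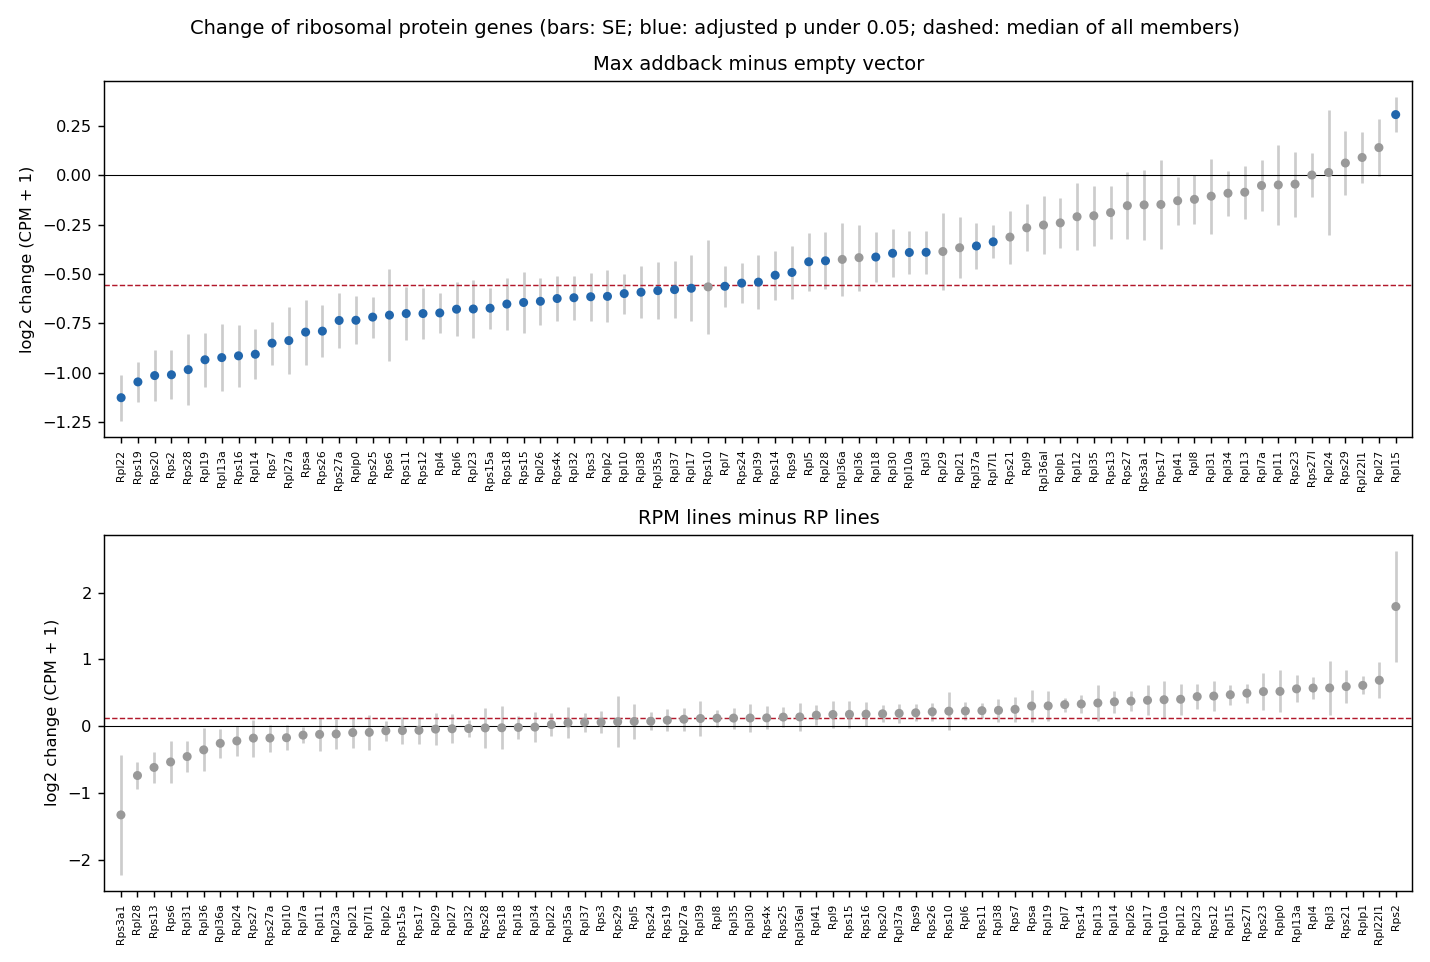
Log2 change (CPM + 1) of ribosomal protein genes, ordered by size, with its SE, without 3 members that are not reported singly; blue points have a limma adjusted p under 0.05 and the dashed line is the median of all members. In the upper panel, addback minus empty vector, 48 of the 77 members drawn are called below 0 and 1 above; in the lower panel, RPM minus RP lines, none is called.

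The authors' deposited table calls 36 members lower and 0 higher with addback, beside 13.1% and 18.9% of all genes, and its calls have an absolute log2 change of at least 0.585. On recovered reads, edgeR called 51 members lower and 1 higher, beside 25.2% and 27.7% of all genes. DESeq2 called 49 lower and 1 higher, beside 22.5% and 25.2% of all genes. Scaling by total reads moved the median of all genes to 0.07 and that of the members to -0.47, and 46 members were then called lower. With that scaling 7426 of all 14056 genes were called in either direction.

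RPM lines were set against RP lines to ask the same of lines that arose without Max. No member passed the threshold by limma in either direction, where 0.209% of all genes were called higher and 0.125% lower. At an unadjusted p under 0.05, 11 members were higher and 2 lower, against 7.56% and 8.34% of all genes, and edgeR called 0 (0.00696% of all genes higher and 0.0139% lower). DESeq2 called 2 higher, Rplp1 and Rpl4, and 1 lower, Rpl28, against 2.57% and 2.23% of all genes with an adjusted p. The median log2 change was 0.12, against -0.005 for all genes, with 55 of 81 members above 0 (67.9%, against 49.5% of all genes). RPM libraries lay wholly above RP libraries for 6 members and wholly below for 2, where 4.97% and 4.39% of all genes did so.

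The summed level of the members was 6800, 8137, 8124 and 6880 CPM in RPM lines, against 6668, 5800, 6453 and 6693 CPM in RP lines. All 4 RPM lines lay above all RP lines, RPM replicates 1 and 4 by a small step and the other RPM lines by a larger one. RPM replicate 1 carries an animal name that also stands on a thyroid tumour labelled Rb/p53 mutant and on a pituitary tumour whose title and genotype labels conflict, and its Mycl level of 320 CPM lay above the 2.84 to 6.61 CPM of RPM replicates 2 to 4 and within the 175 to 408 CPM of the RP lines. RP replicate 4 held the inactive-X transcript Xist at 344 CPM together with Y-linked RNA at 161 CPM. Without these 2 libraries no member was called, where 134 of all 14360 genes were called in either direction, and the members' median was 0.14. Max RNA was at 80.9, 103, 68.9 and 100 CPM in RPM lines and 65.2, 44.7, 50.8 and 57.5 CPM in RP lines, which does not check the deletion, because counts over a whole gene include the exons that remain. All 7 C cell markers were listed and summed to 3530 to 15800 CPM in RPM lines and 3920 to 5200 CPM in RP lines. The 2 fibroblast markers listed summed to 3.32 to 45.7 CPM in RPM lines and 6.38 to 144 CPM in RP lines. The follicular marker Slc5a5 (1 of 5 listed) and the leukocyte marker Cd68 (1 of 3) stayed at or below 8.88 CPM, and 0 of 3 endothelial markers were listed.

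Rplp1, the acidic tip of the stalk (chromosome 9, 61913284 to 61914542), had the smallest p of all members. It was at 255, 324, 329 and 243 CPM in RPM lines, against 195, 167, 190 and 196 CPM in RP lines, so the groups did not overlap. Its mean was 288 ± 45 CPM in RPM and 187 ± 13.3 CPM in RP lines (SD, n = 4 each). The log2 change of 0.61 had an SE of 0.14, with an adjusted p of 0.132 by limma and 0.00263 by DESeq2. Rpl4 had 769, 923, 1081 and 882 CPM in RPM lines and 716, 585, 525 and 633 CPM in RP lines, again without overlap (log2 change 0.57, limma adjusted p = 0.185, DESeq2 adjusted p = 0.0122). Rpl28 (chromosome 7, 4792874 to 4795066), a 60S protein without a bacterial counterpart, went the other way, with 11, 8.48, 7.46 and 9.41 CPM in RPM lines and 17.9, 13.8, 15.1 and 16.2 CPM in RP lines (log2 change -0.74, limma adjusted p = 0.185, DESeq2 adjusted p = 0.0114). All 3 genes kept the order of their groups in every library, and none passed limma's threshold.

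Rpl15 and Rpl7 were likewise higher in every RPM line. Rpl15 had 69.7, 71, 57.9 and 67.1 CPM in RPM lines, against 37.7, 48.9, 53.2 and 52.3 CPM in RP lines (limma adjusted p = 0.214). Rpl7 had 158, 156, 152 and 144 CPM in RPM lines and 119, 114, 116 and 140 CPM in RP lines (limma adjusted p = 0.226). The second member with all RPM lines below all RP lines, beside Rpl28, was Rps13 (limma adjusted p = 0.269), named here after its values were seen.

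Rpl22 and Rps19, among the members that moved most with addback, showed little difference between the lines. Rpl22 averaged 209 ± 19 CPM in RPM lines and 209 ± 49.1 CPM in RP lines (SD, n = 4 each). Rps19 averaged 60 ± 13.3 CPM in RPM lines and 55.6 ± 4.2 CPM in RP lines. These differences were smaller than the spread within a group. The addback values of both stood near those of the 8 lines and the empty vector values above all of them, but the 2 tables were normalised separately, so these levels are set side by side and were not tested.

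**Figure D3:**
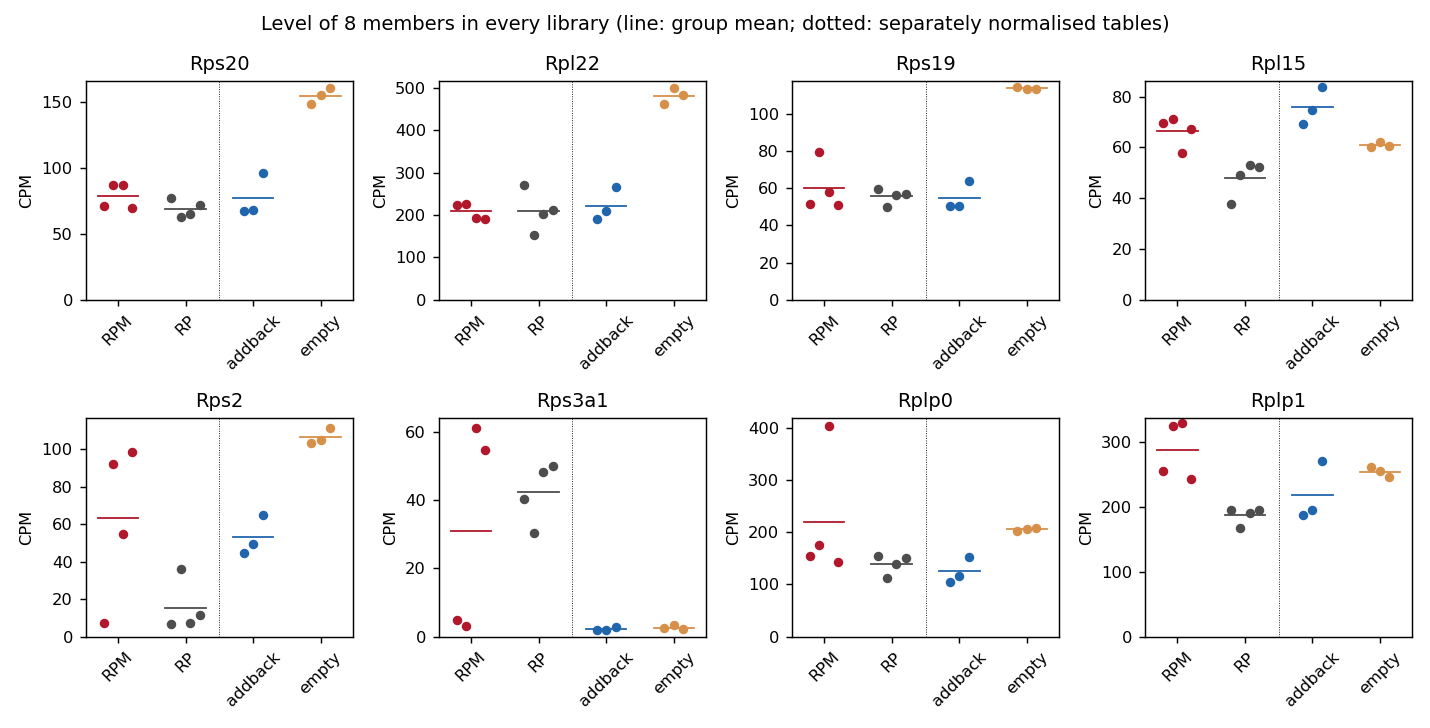
Level in CPM of 8 ribosomal protein genes in every library, with the group mean as a line; axes start at 0 and a dotted line parts the 2 tables. Rps20, Rpl22 and Rps19 separate addback from empty vector, Rplp1 and Rpl15 separate RPM from RP lines, and Rps2, Rps3a1 and Rplp0 vary between single lines.

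A few members varied between single lines far more than the rest. In RPM against RP lines, 3 members lay more than 3 scaled median absolute deviations from the median of the members (limits -0.695 and 0.934): Rps2, Rps3a1 and Rpl28. Rps2 (chromosome 17, 24718116 to 24721929) had 7.4, 92, 54.6 and 98.6 CPM in RPM lines, against 6.86, 36.2, 7.32 and 11.4 CPM in RP lines. RPM replicate 1 lay with the low RP lines, so the groups overlapped, and the log2 change of 1.79 had an SE of 0.83 (limma adjusted p = 0.337). The authors' deposited table calls Rps2 higher in RPM lines, with a log2 change of 2.03 and an FDR of 0.000108, and it is the 1 member that table calls in this comparison, where 1.72% of all genes are called higher and 2.47% lower.

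Rps3a1, a 40S protein near the mRNA exit (chromosome 3, 86137940 to 86142702), had 4.72, 3.12, 61.3 and 54.9 CPM in RPM lines, against 40.3, 30.4, 48.4 and 50.2 CPM in RP lines. RPM replicates 1 and 2 lay far below every other line, and the other RPM lines lay above every RP line. The 6 libraries of the addback experiment, grown from the line of RPM replicate 2, held 1.99 to 3.27 CPM, so its low level was found again in separate libraries of that line. The gene's log2 change between lines was -1.33 with an SE of 0.89 (limma adjusted p = 0.487). It was -0.65 without RPM replicate 2, -0.81 without RPM replicate 1, and -1.96 without RPM replicate 3. On recovered reads edgeR and DESeq2 gave -0.45 for Rps3a1, inside the limits above, and the authors' deposited table also gives -0.45. Rplp0 had 153, 174, 404 and 143 CPM in RPM lines and 155, 112, 140 and 150 CPM in RP lines, where 1 line stood apart. Rpl3, the peptidyl transferase centre protein, named after its values were seen, was at 41.9 and 70.1 CPM in RPM replicates 1 and 3 and between 15.6 and 24.1 CPM in the other 6 lines. Rps2 and Rps3a1 each share 71% of their 50-base stretches with other genes (71.3% and 71.0%), with 71 and 9 pseudogenes, and the part of such copies in these values was not tested.

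The paralogs replace or accompany a parent protein in some ribosomes. Rpl22l1, which Rpl22 is known to repress in mice, had 15, 16.4 and 17.2 CPM with addback and 13.2, 15.2 and 17.4 CPM with empty vector, where its parent fell (limma adjusted p = 0.582 for the paralog). Per length, Rpl22 stood 8.66 to 10.6 times above Rpl22l1 with addback and 19 to 24 times above it with empty vector. The difference of their log2(CPM + 1) values was smaller by 1.22 with addback (-1.22), with an exact two-sided permutation p = 0.1, the smallest that 3 against 3 libraries allow (0.16 adjusted over 8 tests of paralog pairs). In RPM lines the ratio was 8.34 to 13.5 and in RP lines 14.3 to 24, and the same measure differed by -0.66 (exact two-sided permutation p = 0.0286, the smallest possible with 4 against 4, and 0.114 adjusted). There the paralog stood at 11.4, 16.1, 15.9 and 10.2 CPM in RPM lines and 9.74, 6.37, 5.73 and 10.1 CPM in RP lines and was not called (limma adjusted p = 0.288).

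Rps27l, a p53-responsive paralog of Rps27, had 72.5, 72.7, 59.3 and 61.9 CPM in RPM lines, against 40.5, 55.1, 42.8 and 50.5 CPM in RP lines, without overlap (log2 change 0.49, limma adjusted p = 0.194). With addback it averaged 79.1 ± 12.9 CPM and with empty vector 78.4 ± 4.41 CPM (SD, n = 3 each). In RPM lines Rps27 stood at 0.0179 to 0.0313 times the RPKM of Rps27l and in RP lines at 0.0267 to 0.0789 times (the difference of their log2 values changed by -0.67, with a two-sided exact p = 0.0286 and 0.114 adjusted). Rps27 shares 98.6% of its 50-base stretches with 9 other genes, and how the counting treated reads that match several copies is not stated. Rpl7l1, a nucleolar assembly factor related to Rpl7, was the paralog that fell with addback, to 74, 80.3 and 88.5 CPM, against 103, 101 and 103 CPM with empty vector (log2 change -0.34, limma adjusted p = 0.00667). Rpl36al averaged 3.55 CPM with addback and 4.43 CPM with empty vector, and 3.25 CPM in RPM and 2.85 CPM in RP lines, not called in either comparison (limma adjusted p = 0.172 and 0.784). None of the 8 paired differences of log2 values had an adjusted p under 0.05, and 3 against 3 libraries allow no p below 0.1. The other 5 differences are given here. With addback they were -0.16 for Rps27 and Rps27l, -0.22 for Rpl7 and Rpl7l1, and -0.17 for Rpl36a and Rpl36al (two-sided exact permutation p = 0.3, 0.1 and 0.5, adjusted 0.343, 0.16 and 0.5). Between RPM and RP lines they were 0.42 for Rpl7 and Rpl7l1 and -0.40 for Rpl36a and Rpl36al (two-sided exact permutation p = 0.2 and 0.0857, adjusted 0.267 and 0.16).

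The 2 comparisons ran over separate libraries, though the addback experiment is of 1 of the RPM lines. Of the 51 members that fell with addback 40 lay above 0 in RPM against RP lines, and of the 28 not called 14 did. Above 0 lay 67.9% of all members and 49.5% of all genes. Of the 11 members higher in RPM lines at an unadjusted limma p under 0.05, 6 fell with addback, where 51 of all 80 members did. Whether the 2 changes are related was not tested. Over 80 members the changes had a Spearman's rho of -0.17 and a Pearson's r of -0.2, given as a description, since members share libraries and scaling.

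**Figure D4:**
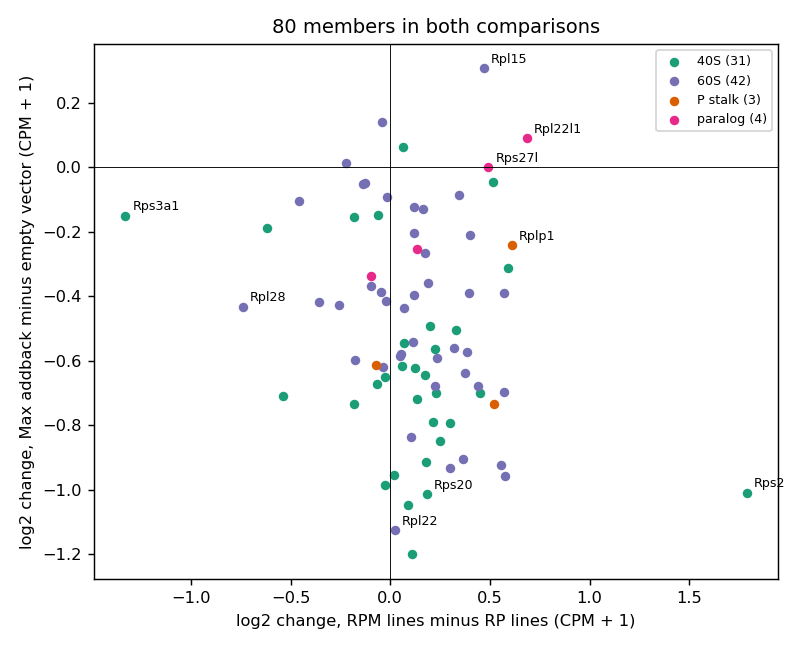
Log2 change (CPM + 1) of 80 ribosomal protein genes in RPM minus RP lines (horizontal) and in addback minus empty vector (vertical), coloured by subunit. Most points lie below 0 on the vertical axis and close to 0 on the horizontal axis, with Rps2 and Rps3a1 far out on opposite sides.

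Per length, the members differed widely in level. The mean over libraries ran from 0.751 to 495 RPKM (reads per kilobase, scaled to library size) in the lines, with a median of 17.5 RPKM, and from 1.09 to 472 RPKM in the addback experiment, with a median of 25.2 RPKM. Rplp1, Rpl8, Rps15 and Rpl4 held the 4 highest levels in both tables, and the order of the members was nearly the same in both (Spearman's rho 0.95 over 80 genes). Rpl24 was lowest in both, followed by Rpl23a in the lines, and Rps10 and Rps6 were among the next. Genes whose proteins a ribosome holds in equal number thus differed widely in counted RNA per length. The gene lengths behind the RPKM, taken from CPM over RPKM, ran from 383 bases for Rpl36 to 6270 bases for Rps15a. The part of these lengths in the spread was not tested.

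The length of sequence shared with other annotated genes was measured as the share of 50-base stretches of a principal transcript that also occur in another gene's transcript. It had a median of 43.9% in the 81 members and reached 98.6% in Rps27, while the median in 77 mitochondrial ribosomal proteins was 0%. Members that share more had lower RPKM (Spearman's rho -0.43 over 81 genes in the lines and -0.44 over 80 in the addback experiment). The share was hardly related to the log2 change with addback (rho 0.11) or between lines (rho -0.08). The 7 members under 10%, among them Rps3, Rpl22, Rpl8 and Rpl7l1, had a median log2 change of -0.67 with addback and 0.02 between lines, against -0.55 and 0.12 for all members. The share also depends on transcript length. Rps20 and Rps15a, also among the 7, have principal transcripts of 3706 and 5179 bases. They share 272 and 322 stretches, with 31 and 39 other genes, so the 7 do not stand for members without shared sequence. The 7 are few and are counted among all members, they include Rpl8, which was not called, and the part of shared sequence in the changes was not tested.

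**Figure D5:**
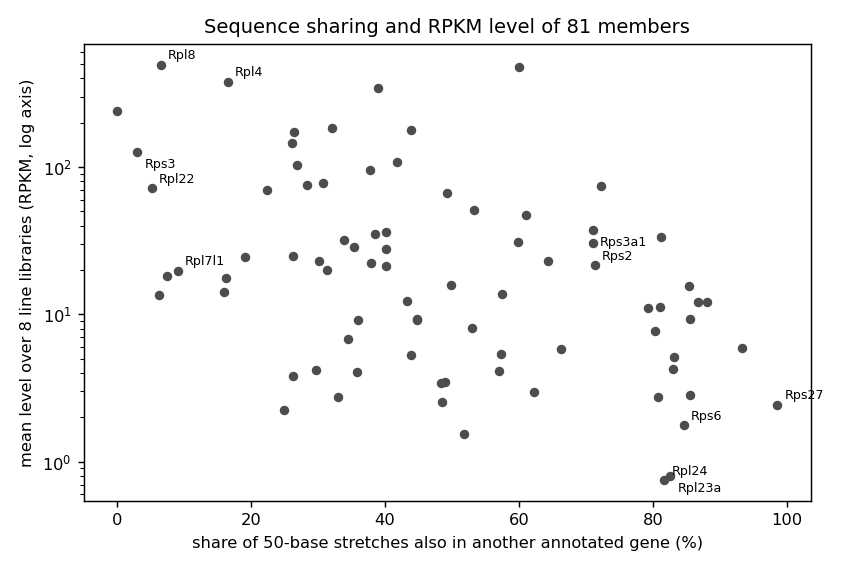
Share of 50-base stretches also found in another annotated gene (horizontal, %) against mean level over the 8 line libraries (vertical, RPKM, log axis) for 81 ribosomal protein genes. Rps3, Rpl8 and Rpl22 lie at the upper left, and Rps27, Rps6, Rpl24 and Rpl23a at the lower right.

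Other genes of the pathway were counted in lists, beside the 25.5% of all genes that were called lower and the 27.7% called higher with addback. Fau and Rack1, which encode ribosomal proteins but lie outside the naming rule, fell with addback (log2 changes -0.93 and -0.73, limma adjusted p = 0.000296 and 0.000498). Of 18 TOP mRNAs of translation factors and partners 14 fell and 0 rose, with a median of -0.55. Eef1a1, which delivers aminoacyl-tRNA, had a mean of 1265 ± 150 CPM with addback and 2399 ± 65.9 CPM with empty vector, and Tpt1 97.8 ± 8.42 and 170 ± 3.06 CPM (SD, n = 3 each). The intermediate filament gene Vim, a TOP mRNA of mesenchymal cells, averaged 2.41 CPM with addback and 162 CPM with empty vector. Of 14 snoRNA host genes, many of which carry the tract, 9 fell and 0 rose (median -0.73), among them Gas5, at 60.8 ± 10.4 CPM with addback and 128 ± 5.4 CPM with empty vector.

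Of 15 chaperones and importers of ribosomal proteins 8 fell with addback and 1 rose (median -0.39), again beside 25.5% and 27.7% of all genes. Ltv1, an assembly factor of the 40S subunit, averaged 47.4 ± 4.58 CPM with addback and 101 ± 7.73 CPM with empty vector (SD, n = 3 each). It was the 1 gene of these lists called in RPM against RP lines, at 84.7 ± 5.31 CPM in RPM and 38.3 ± 6.28 CPM in RP lines (SD, n = 4 each). Of 15 regulators of TOP mRNAs 5 fell and 0 rose (median -0.16). The share that fell was near the 25.5% of all genes called lower, while 27.7% of all genes were called higher. Among these regulators, the translational repressor Eif4ebp1 had a log2 change of -1.47 (limma adjusted p = 0.000194) and Larp1 of -0.43 (limma adjusted p = 0.000653). Mtor was not called (limma adjusted p = 0.065). Of 77 mitochondrial ribosomal proteins, which build a separate ribosome, 26 fell and 2 rose, with a median of -0.16. The share that fell was somewhat above the 25.5% of all genes, and the share that rose well below their 27.7%. Between RPM and RP lines these lists had medians of 0.08 to 0.46, the snoRNA hosts having the highest, and no further gene of them was called.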

How the data were processed

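RNA sequencing values of 14 cell line libraries were used, grouped by sample titles and genotypes. Per the submitters' processing notes bcl2fastq 1.8.4, TopHat2 2.1.0, HTSeq 0.6.1 and edgeR (no version given) were used, with build mm10. Annotation release, gene filter and strand use in counting are not stated there, and reads of overlapping genes cannot be told apart. Per the file headers, the authors deposited TMM-normalised CPM, a signal per gene and library, in 2 tables normalised separately. The deposited RPKM values divide that level by gene length. The authors also deposited log2 fold changes, p-values with FDR, and a score of -1, 0 or 1 for each call.

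The CPM values were whole multiples of 1 read (100% within 0.01 read), which gave totals of 6738614 to 8498396 reads and a level of 0.353 to 0.458 CPM for 3 reads. The members took 0.579 to 0.982% of reads. Such figures cover counting error only. limma 3.58.1 (limma-trend, R 4.3.3) was run on log2(CPM + 1) over all listed genes, each comparison on its own libraries without covariates, two-sided, Benjamini-Hochberg adjusted p under 0.05. That scale understates changes of low genes. Since the tables hold normalised values, edgeR 4.0.16 and DESeq2 1.42.0 on recovered reads were alternatives. The fits were tested on simulated data. Exact permutation tests were used for paralog ratios. Named were paralogs with their parents, the up to 10 largest called changes in each direction (or the 5 smallest p where fewer than 5 passed), members over 3 scaled median absolute deviations from the members' median, the 5 highest and lowest by RPKM, and 9 genes of known role; a few genes are not reported singly here. Members and lists were chosen with earlier results of these data known. Coordinates are GENCODE vM21 on GRCm38, which mm10 names. No protein sequences were used here.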

Additional observations from a re-analysis of the deposited data

Results flagged for a closer look

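In groups of 4 lines, 27 genes and sums were examined in each group for a library far from the other 3. Chance alone marks about 1 in 20 such checks, so it can give as many marks as are listed here. Rplp0 stood at 404 CPM in RPM replicate 3, while RPM replicates 1, 2 and 4 lay between 143 and 175 CPM. Rps2 stood at 36.2 CPM in RP replicate 2, against 6.86 to 11.4 CPM in the other RP lines.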

How the results depend on the processing

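The alternatives were pseudocounts of 0.5 and 5, a mean of at least 10 CPM, total read and median-of-ratios scaling, edgeR, DESeq2, the replicate block, leaving out paralogs and leaving out each library. With addback the count of lower members stayed within 44 to 64 and the median within -0.67 to -0.46, and the count of higher members was 0 to 1 over the fits without 1 library. Between lines DESeq2 called 2 higher and 1 lower, other settings 0, and the median was 0.07 to 0.18. Over all 14360 genes, 261 were called without RPM replicate 1 and 0 without RPM replicate 3. Replicate numbers were not taken as pairs in the main fits (correlations of same-numbered libraries 0.01 to 0.44 in lines and 0.03 to 0.1 with addback). RPM replicates 1 (0.44) and 4 (0.13) matched the RP line of their own number best, and RPM replicates 2 and 3 another. Addback replicates 1 and 3 matched the control of their own number best, and addback replicate 2 another. With the replicate block 54 members were lower and 1 higher with addback, where 7438 of all 14056 genes were called in either direction. That block gave 0 called members between lines, where 0 of all 14360 genes were called. With the block Rps10 passed with addback (limma adjusted p = 0.0225). Leaving out RPM replicate 1 together with RP replicate 4 was chosen after seeing the data. Signs turned for members near 0, and the cause was not tested. Between lines Rpl22 was at -0.003 by edgeR and -0.004 by DESeq2. Without 1 library, or without the 2 named, Rpl22 ran from -0.119 to 0.158, Rplp2 from -0.167 to 0.006, Rps19 from -0.053 to 0.163, Rpl7l1 from -0.287 to 0.075 and Rpl5 from -0.035 to 0.269. With addback Rpl24 was at -0.02 with a pseudocount of 5, -0.195 by edgeR and -0.18 by DESeq2, and Rpl11 at 0.025 with total read scaling. Without 1 library, Rpl24 ran from -0.394 to 0.293, Rpl11 from -0.293 to 0.099, Rpl31 from -0.234 to 0.066, Rps27l from -0.125 to 0.093 and Rpl22l1 from -0.006 to 0.184. Depth limits members under about 10 CPM.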
